A study of Mus musculus with 16 samples.

Results

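MHC class II presentation and costimulation was followed through 10 genes across 16 libraries of mouse colorectal tumours. They were H2-Aa, H2-Ab1, H2-Eb1, H2-DMa, H2-DMb1, Cd74, Ciita, Cd40, Cd80 and Cd86, taken by their symbols as 10 rows of the 54532 genes in the count table. The tumours came from MC38 cells, a colon carcinoma line of C57BL/6 mice, grown in the colon wall of that strain. One line, MSI, is named for microsatellite instability and the other, CIN, for chromosomal instability. Mice with either tumour received bone marrow derived dendritic cells (BMDCs) that had been exposed with Lipofectamine 2000 to 2 µg of cytosolic DNA for 30 minutes. That DNA was of MSI or of CIN origin, and was either free or packed in micronuclei, small membrane-bound bodies that hold chromosome fragments. The 2 tumours, 2 sources and 2 forms of DNA made 8 groups with 2 libraries each, replicates 1 and 2. In every group the cells were given on days 1, 6 and 12 and the tumour was taken on day 15. RNA of 3 biological replicates was pooled. The sources used here do not say whether each library was such a pool of its own, so a p-value measures only how far these libraries spread, and some of that spread may be technical. Each tumour type was a single line, so the kind of instability and anything else that sets these lines apart cannot be told apart. Every mouse had received DNA-loaded BMDCs, and tumours without them were not analysed here.

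Class II molecules present peptides from the endosomes of dendritic cells, B cells and macrophages to CD4 T cells. H2-Aa and H2-Ab1 encode the alpha and beta chains of I-A, the class II molecule of C57BL/6 mice, and H2-Eb1 encodes the beta chain of I-E, whose alpha chain this strain lacks. Cd74 encodes the invariant chain, which fills the groove during transport, and H2-DMa and H2-DMb1 encode the H2-M molecule that exchanges its remnant for peptide. Ciita encodes the coactivator that switches on these genes. Cd80 and Cd86 encode the ligands of CD28 and CTLA-4 on T cells, and Cd40 encodes the receptor through which CD40 ligand on T cells activates presenting cells.

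The class II genes share a promoter layout in which an X box, bound by RFX and cyclic AMP response element binding factors, stands before a Y box, bound by NF-Y. The stretches of 250 bases before the RefSeq start sites of H2-Aa and H2-Eb1 show that layout, with the Y box (TGATTGG) and, before it, a full cyclic AMP response element (TGACGTCA) or the core of an X box (AACTNNTGA) in capitals. They are given 5′ to 3′ on the strand of the gene in GRCm38.p6, at chr17:34287824-34288073 on the minus strand for H2-Aa and chr17:34305617-34305866 on the plus strand for H2-Eb1.
H2-Aa: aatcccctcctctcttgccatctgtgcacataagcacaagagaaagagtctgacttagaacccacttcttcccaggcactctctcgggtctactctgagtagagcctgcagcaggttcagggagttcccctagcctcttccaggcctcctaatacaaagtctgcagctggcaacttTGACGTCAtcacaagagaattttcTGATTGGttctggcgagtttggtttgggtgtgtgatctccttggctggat
H2-Eb1: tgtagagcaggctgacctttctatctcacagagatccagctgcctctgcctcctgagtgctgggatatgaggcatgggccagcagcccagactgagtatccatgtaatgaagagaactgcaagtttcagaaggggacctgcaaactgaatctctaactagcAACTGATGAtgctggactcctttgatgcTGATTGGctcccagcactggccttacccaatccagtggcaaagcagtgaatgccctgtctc
In H2-Aa the TGACGTCA element lay 74 to 67 bases before the start site and ended 16 bases before the Y box. In H2-Eb1 the X box core AACTGATGA lay 89 to 81 bases before the start site and ended 19 bases before the Y box. H2-DMb1 had the same X box core from 92 to 84 and the Y box from 63 to 57 bases before its RefSeq start, with 20 bases between them. That start lies 119 bases downstream of the first base of the gene model in the count table, so the window is not printed. The start of H2-Aa lies 4 bases downstream of its gene model's first base and that of H2-Eb1 lies before it. Of 32851 RefSeq windows of the same length, 7.23% held the Y box, 1.55% held TGACGTCA and 3.19% held the X box core on either strand. The CCAAT sequence that the Y box contains on its reverse strand was found in 33.8%. These motifs were chosen with the sequences in view, and a match describes letters, not a bound site. The RefSeq table matched 5 of the 10 genes, the other 2 being H2-DMa and Cd80, and had no entry for H2-Ab1, Cd74, Ciita, Cd40 or Cd86.

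The totals ran from 11561955 to 17937501 counts per library, and all 10 genes passed the filter on low counts, as did 18777 genes in all. Markers of colon epithelium were present in all 16 libraries but varied, from 395 to 8403 CPM summed over 10 genes in MSI tumours and from 88.8 to 5702 CPM in CIN tumours. CPM here is the count scaled to library size with edgeR's TMM factors. Skeletal muscle markers ran from 3.43 to 529 and from 6.49 to 211 CPM over 6 genes, and 5 libraries were rich in them. Those 5 were replicate 1 of MSI tumours given CIN micronuclei, both CIN tumours given MSI micronuclei, and replicate 2 of CIN tumours given MSI free DNA or CIN free DNA. Of the cells that carry class II, the summed marker level was 1422 to 3031 CPM for macrophages and monocytes (13 genes), 5.57 to 158 for B cells (9 genes) and 31.3 to 59.7 for dendritic cells (10 genes). In bulk tissue fewer cells of a type and less RNA per cell cannot be told apart.

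Levels were compared between genes as FPKM, which corrects for gene length. Cd74 stood highest, with a median of 605 FPKM and a range of 382 to 778 over the 16 libraries. The class II chains followed with medians of 204 for H2-Eb1, 181 for H2-Ab1 and 175 for H2-Aa. H2-DMb1 had 36.8 and H2-DMa 28.1 FPKM. The remaining genes were far lower, with 3.83 for Cd86, 2.56 for Ciita, 2.10 for Cd40 and 1.51 for Cd80. The median ratio of Cd74 to Cd80 was 391. This order held in every library except at 3 places. H2-Ab1 exceeded H2-Aa in 11 of 16 libraries, Ciita exceeded Cd40 in 14 and Cd40 exceeded Cd80 in 12. These differences between neighbours were not tested. H2-Eb1 transcripts were thus abundant, while H2-Ea-ps, the nonfunctional I-E alpha gene, had 0 counts in all 16 libraries. The chains of I-A kept close to equal FPKM, with an H2-Aa to H2-Ab1 ratio of 0.971 ± 0.065 (SD, n = 16), and Cd74 had 3.42 ± 0.23 times the FPKM of H2-Ab1.

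**Figure D1:**
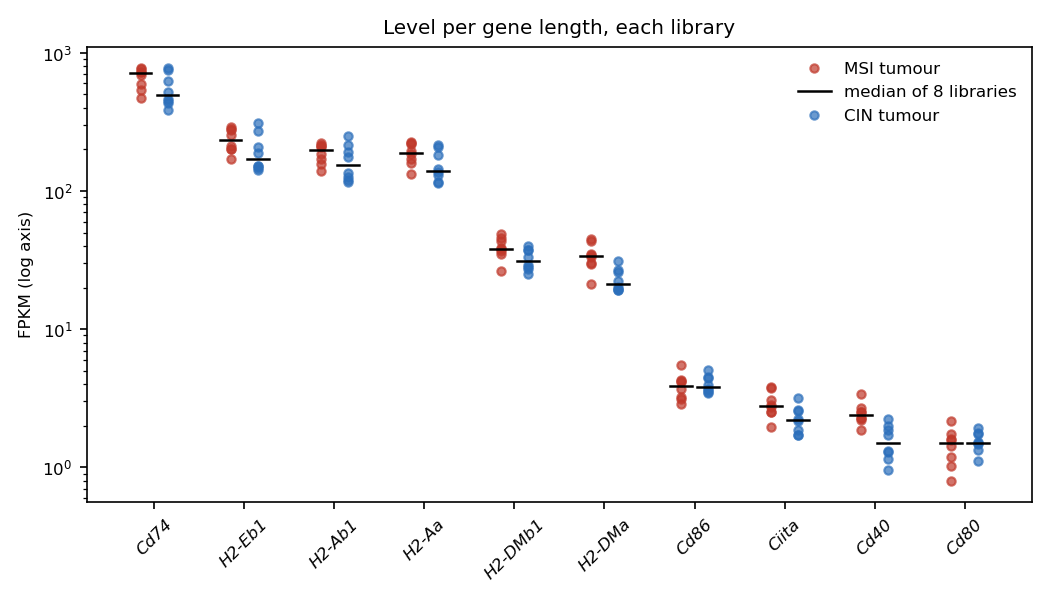
FPKM of each gene on a log axis, 1 point per library, with MSI and CIN tumours side by side and a line at the median of 8 libraries. Over all 16 libraries the medians are 605 for Cd74, 175 to 204 for the 3 class II chains, 28.1 to 36.8 for the H2-M genes, and 1.51 to 3.83 for Ciita and the costimulatory genes.

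The tumour comparison asked how the MSI and CIN lines differed over all kinds of DNA given. Of the 10 genes, Cd40 passed the test and was higher in MSI tumours, and none was lower. Of all 18777 genes, 2.32% were called higher, 3.48% lower and 5.80% either way, so 1 of 10 is near the background. Cd40 ran from 6.42 through a median of 8.11 to 11.7 CPM in the 8 MSI libraries, and from 3.35 through 5.35 to 7.71 in the 8 CIN libraries. The groups overlapped, with 5 MSI libraries above all CIN libraries and 6 CIN libraries below all MSI libraries. The mean was 8.38 ± 1.60 against 5.45 ± 1.53 CPM (SD, n = 8 each), a log2 fold change of 0.65 ± 0.16 SE (edgeR quasi-likelihood test, Benjamini-Hochberg adjusted p = 0.0437). All 4 matched pairs of group means had that sign. The call is close to the threshold: the adjusted p was 0.0425 to 0.117 when each library was left out in turn, and below 0.05 in 2 of the 16 fits, those without replicate 1 of CIN tumours given MSI micronuclei or without replicate 2 of MSI tumours given MSI free DNA. Without the 5 muscle-rich libraries, most of them from CIN tumours, an additive model gave a log2 fold change of 0.44 ± 0.24. The call was lost there, with fewer libraries fitted. With all 16 libraries and scores of colon epithelium and skeletal muscle as covariates, the log2 fold change was 0.63 ± 0.17 (edgeR adjusted p = 0.0399).

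Markers of other cells also differed between the tumours. Mast cell markers had the largest median log2 fold change of the 11 lists, 3.84, with 7 of 7 positive and 5 called higher, and summed to 22.6 to 81.0 CPM in MSI and 3.36 to 42.4 CPM in CIN tumours. These sums lean on Kit, which reached 47.7 CPM, while the next highest marker, Cma1, reached 10.3 CPM. Endothelial markers summed to 103 to 164 CPM in MSI and 64.3 to 117 CPM in CIN tumours, and 5 of 6 were called higher. T cell markers summed to 41.2 to 70.6 against 34.4 to 66.5 CPM, with 8 of 8 positive and 0 called. B cell markers summed to 31.4 to 157 against 5.57 to 158 CPM, with 9 of 9 positive and 0 called. Markers of colon epithelium (10 of 10) and smooth muscle (6 of 6) were positive with 0 called, and those of skeletal muscle were negative (6 of 6) with 0 called. Dendritic cell markers (6 of 9 tested, median 0.24) and macrophage and monocyte markers (10 of 13, median 0.22) were mostly positive with 0 called. Neutrophil markers lay the other way, with 4 of 5 tested negative, 1 called lower and a median of -1.45. Of 5 fibroblast markers 4 were negative and 1 was called lower. With the T cell score as a covariate, Cd40 had a log2 fold change of 0.40 ± 0.21 (adjusted p = 0.536), with the B cell score 0.64 ± 0.19 (adjusted p = 0.0979) and with the macrophage score 0.57 ± 0.16 (adjusted p = 0.0132, all edgeR). These 3 fits were chosen after seeing the data. Over all genes they called 93, 698 and 7848 in that order, in place of 1089. The part of mast cell and endothelial markers in the Cd40 difference was not tested.

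The 2 genes of H2-M did not pass, with unequal sizes. H2-DMa ran from 34.4 through 53.2 to 78.6 CPM in MSI and from 32.4 through 36.2 to 52.6 CPM in CIN tumours. The 2 ranges overlap, although 5 MSI libraries lay above every CIN library. The log2 fold change was 0.52 ± 0.16 (edgeR adjusted p = 0.0885). H2-DMa passed the test under 7 of 29 other settings, among them DESeq2 and the fit with the replicate number as a block within each tumour type (0.50 ± 0.10, adjusted p = 0.0111, with 3428 genes called in place of 1089). Within MSI tumours H2-DMa split by replicate number, with 53.8 to 78.6 CPM in replicate 1 libraries and 34.4 to 52.6 CPM in replicate 2 libraries. H2-DMb1 had 57.7 ± 11.3 against 48.8 ± 7.53 CPM and a log2 fold change of 0.24 ± 0.12 (adjusted p = 0.253). H2-DMb1 has a near-identical neighbour, H2-DMb2, at 9.16 CPM on average, and counting could split reads between them. The ratio of H2-DMa to H2-DMb1 in FPKM averaged 0.865 ± 0.071 over the MSI tumours and 0.720 ± 0.070 over the CIN tumours (SD, n = 8). Exact 2-sided permutation of the tumour label among libraries given the same source and form of DNA gave p = 0.00617 (adjusted p = 0.127 over 33 ratio tests). The ratio difference did not pass after adjustment.

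The class II chains and the invariant chain had small positive differences that did not pass. H2-Aa had 245 to 407 CPM, median 355, in MSI and 226 to 414 CPM, median 267, in CIN tumours. H2-Ab1 had 226 to 363, median 304, against 202 to 418, median 258. Cd74 had 654 to 1044, median 984, against 572 to 1123, median 706. In each case the CIN range contained the whole MSI range, and the highest library of all was replicate 1 of CIN tumours given CIN free DNA. The log2 fold changes were 0.23 ± 0.13 for H2-Aa (edgeR adjusted p = 0.313), 0.15 ± 0.14 for H2-Ab1 (0.519), 0.24 ± 0.16 for H2-Eb1 (0.409) and 0.23 ± 0.13 for Cd74 (0.304). Ciita, the coactivator, had 27.6 ± 6.75 against 22.0 ± 4.69 CPM and 0.33 ± 0.18 (0.304). Its gene overlaps Dexi on the other strand, at 21.2 CPM on average, and the sources used here give no strand setting for the counting.

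The CD28 ligands had the opposite sign and also did not pass. Cd80 ran from 2.74 through 5.25 to 8.08 CPM in MSI and from 4.21 through 5.88 to 7.20 CPM in CIN tumours, with a log2 fold change of -0.18 ± 0.18 (edgeR adjusted p = 0.553). Cd86 ran from 10.4 through 14.2 to 20.1 and from 12.8 through 14.7 to 19.2 CPM, with -0.09 ± 0.17 (adjusted p = 0.754). Within MSI tumours Cd86 split by replicate number, with 15.7 to 20.1 CPM in the 4 replicate 1 libraries and 10.4 to 12.6 in the 4 replicate 2 libraries. Macrophage and monocyte markers split there in the same order, with 2293 to 3031 against 1422 to 1952 CPM. Markers of colon epithelium (395 to 2642 against 5342 to 8403 CPM), smooth muscle (346 to 1154 against 1916 to 4969) and mast cells (22.6 to 44.0 against 56.0 to 81.0) split in the reverse order. With the macrophage score as a covariate, a fit chosen after seeing the data, Cd86 had a tumour effect of -0.30 ± 0.11 (edgeR adjusted p = 0.0411). That fit called 7848 of the 18777 genes, in place of 1089. Over the 10 genes the tumour log2 fold change was positive in 8 with a median of 0.23, against 55.7% positive and a median of 0.06 over all genes tested.

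**Figure D2:**
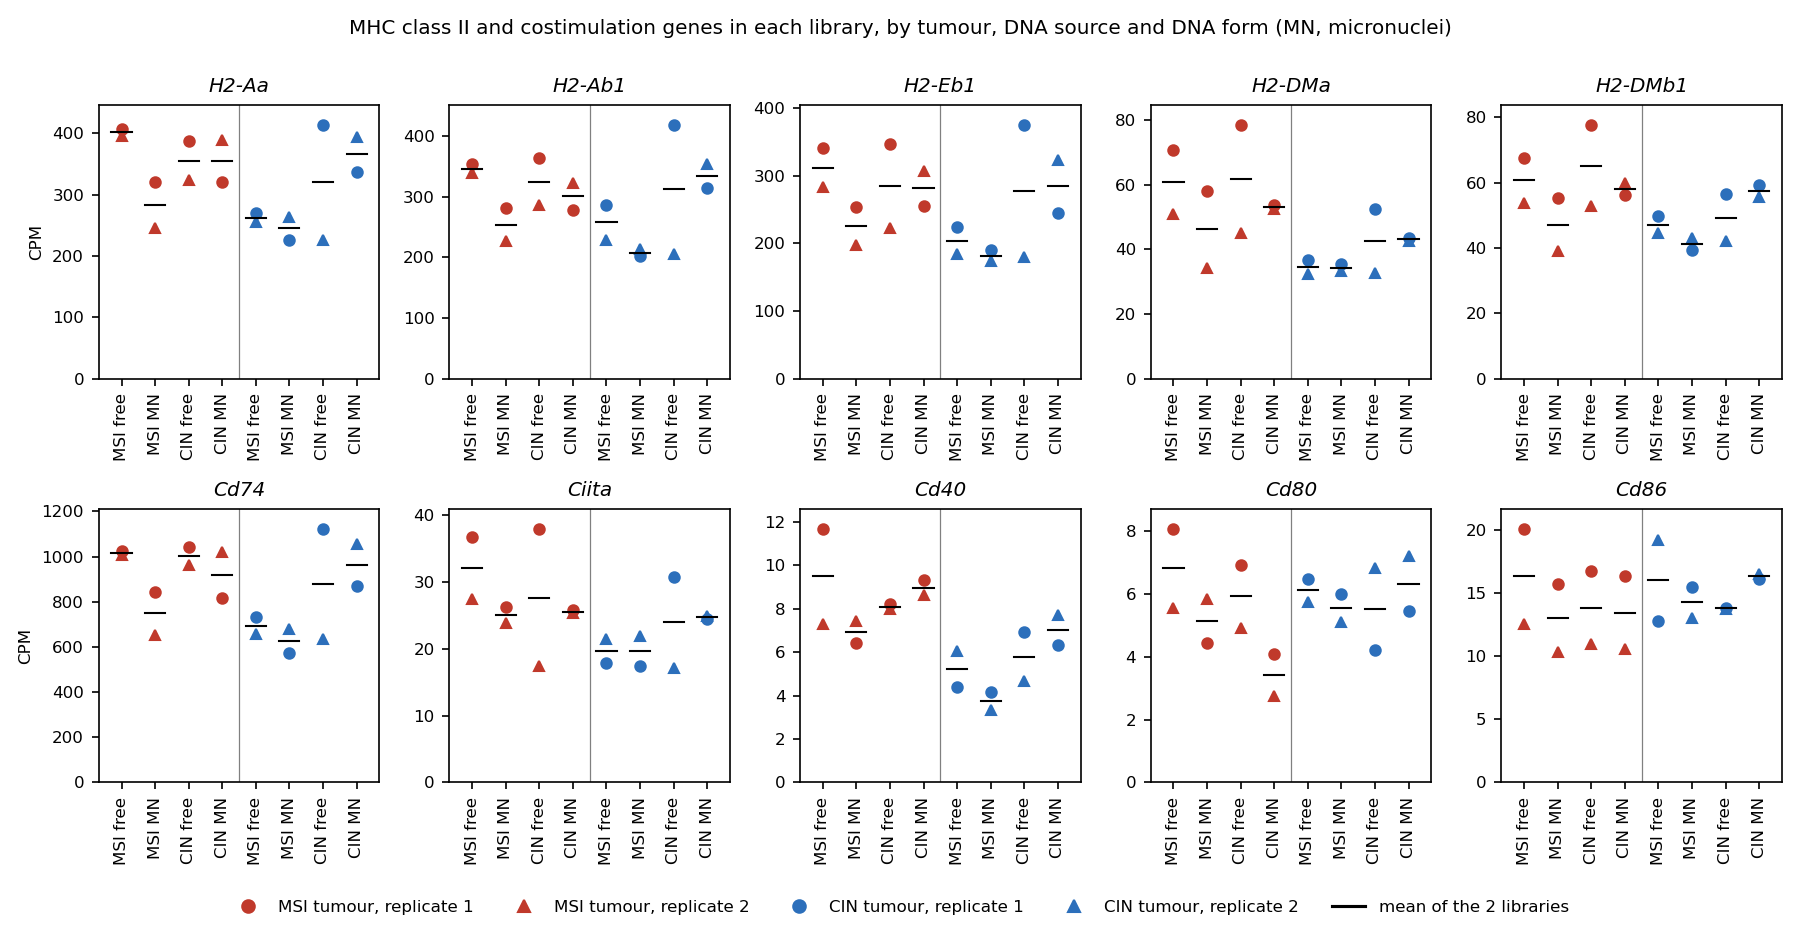
CPM of each gene in each library on a linear axis from 0, with MSI tumours in red left of the line and CIN tumours in blue right of it, circles for replicate 1, triangles for replicate 2 and bars at the mean of the 2 libraries. Cd40 lies between 6.42 and 11.7 in MSI and between 3.35 and 7.71 in CIN tumours, and the 2 CIN tumours given CIN free DNA stand far apart in the class II genes.

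The comparison of DNA source set tumours of mice given MSI DNA against those given CIN DNA. None of the 10 genes passed, where 0% of 18777 genes were called by edgeR or DESeq2, and 209 genes had an unadjusted p below 0.05 in edgeR and 249 in DESeq2. Of the 10, Cd74 had such a p in edgeR. The 8 genes H2-Aa, H2-Ab1, H2-Eb1, H2-DMa, H2-DMb1, Cd74, Ciita and Cd40 had negative log2 fold changes, MSI against CIN DNA, and Cd80 and Cd86 positive ones. Over 29 other settings Cd86 changed sign in 6 and Ciita in 3. Cd74 had 572 to 1027 CPM, median 706, with MSI DNA and 637 to 1123 CPM, median 992, with CIN DNA. The ranges overlapped, and the log2 fold change was -0.31 ± 0.13 with an unadjusted edgeR p of 0.0325 and an adjusted p of 1.00. The others ran from -0.32 ± 0.16 for H2-Eb1 to -0.11 ± 0.18 for Ciita, with 0.19 ± 0.18 for Cd80 and 0.05 ± 0.17 for Cd86. The median over the 10 was -0.25, against -0.03 over all genes, of which 39.7% were positive. T cell markers (8 of 8) and B cell markers (9 of 9) were also negative with 0 called, with median log2 fold changes of -0.33 and -0.69. So were those of colon epithelium (10 of 10, median -0.21) and smooth muscle (6 of 6, median -0.41). Positive values numbered 1 of 9 tested for dendritic cells, 1 of 7 for mast cells and 1 of 5 for fibroblasts. They numbered 4 of 13 for macrophages and monocytes, 2 of 6 for skeletal muscle, 3 of 5 tested for neutrophils and 4 of 6 for endothelium. With the T cell score as a covariate, added after seeing the data, H2-Ab1 had a source effect of 0.05 ± 0.17 in place of -0.28 ± 0.14.

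The source values lay further from 0 within CIN tumours for 8 of the 10 genes, Cd80 and Cd86 being the exceptions. There 5 genes, H2-Aa, H2-Ab1, H2-Eb1, Cd74 and Cd40, had an unadjusted edgeR p between 0.0211 and 0.0435, of 315 genes in all, and none of the 10 nor of all genes was called (0%). DESeq2 called 1 gene in all and none of the 10, of which 5 had an unadjusted p below 0.05. That count of 5 was 0 without replicate 1 of CIN tumours given CIN free DNA and 0 without replicate 2 of those given CIN micronuclei. It was 1 without replicate 1 of CIN tumours given MSI micronuclei or replicate 2 of those given MSI free DNA, and 2 without the other library of either group. It was 0 with the colon and skeletal muscle covariates, the B cell covariate or the T cell covariate, and 3 when only libraries of CIN tumours were fitted. H2-Ab1 had 202, 213, 229 and 287 CPM in the 4 CIN tumours given MSI DNA, and 206, 314, 354 and 418 CPM in the 4 given CIN DNA. The ranges overlap through the lowest library with CIN DNA, replicate 2 of the free DNA group. Skeletal muscle markers were positive in this comparison (6 of 6, median log2 fold change 2.01), and 3 of the 4 libraries given MSI DNA and 1 of the 4 given CIN DNA were muscle-rich. B cell markers (9 of 9, median -1.57, 3 at an unadjusted edgeR p below 0.05) and T cell markers (8 of 8, median -0.43) were negative. So were those of colon epithelium (10 of 10, median -0.46), smooth muscle (6 of 6, median -0.65) and fibroblasts (5 of 5, median -0.22). Positive values numbered 2 of 9 tested for dendritic cells, 1 of 7 for mast cells and 1 of 6 for endothelium. They numbered 8 of 13 for macrophages and monocytes and 4 of 5 tested for neutrophils, and no marker was called. The log2 fold change was -0.48 ± 0.20 for H2-Ab1 and -0.48 ± 0.18 for Cd74, at 660 ± 67.0 against 922 ± 218 CPM (SD, n = 4 each). Cd40 had 4.49 ± 1.13 against 6.41 ± 1.30 CPM (-0.53 ± 0.23). Within MSI tumours the same genes lay between -0.14 and -0.07, and Cd80 was the furthest from 0 at 0.39 ± 0.26. The difference between the tumours, tested as the interaction, had unadjusted edgeR p-values of 0.180 to 0.813 over the 10 genes and called none. Of all genes edgeR called 0% (285 at an unadjusted p below 0.05) and DESeq2 called 2.

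The 2 CIN tumours given CIN free DNA stood far apart. Replicate 1 had 1123 CPM of Cd74 and 418 of H2-Ab1, and replicate 2 had 637 and 206. B cell markers summed to 158 CPM in the first and 18.4 CPM in the second, and replicate 2 was one of the muscle-rich libraries. Cd80 had the reverse order, with 4.21 CPM in replicate 1 and 6.82 in replicate 2.

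The comparison of DNA form set free DNA against micronuclei. All 10 genes had a positive log2 fold change and none passed (0% of all genes called by edgeR or DESeq2, with 148 and 198 genes at an unadjusted p below 0.05 and none of the 10 among them). The values ran from 0.07 ± 0.17 for Cd86 to 0.28 ± 0.18 for Cd80, with a median of 0.14, while 50.4% of all genes were positive. Each was within 2 standard errors of 0. T cell markers (8 of 8, median 0.19) and B cell markers (8 of 9, median 0.22) were positive as well, skeletal muscle markers were negative (6 of 6, median -0.54), and 0 were called. H2-Ab1 had 206 to 418 CPM, median 312, with free DNA and 202 to 354 CPM, median 280, with micronuclei. Cd80 in MSI tumours had 4.93, 5.57, 6.92 and 8.08 CPM with free DNA and 2.74, 4.11, 4.44 and 5.83 with micronuclei, with overlap in the middle. That log2 fold change was 0.60 ± 0.26, with an unadjusted edgeR p of 0.0435 and an adjusted p of 1.00 (0% of genes called and 126 at an unadjusted p below 0.05), against -0.03 ± 0.26 in CIN tumours (0% called, 153 at an unadjusted p below 0.05). DESeq2 called 0 genes in both. The interaction of tumour and form for Cd80 was 0.31 ± 0.18, the difference between the tumours divided by 2, with an unadjusted edgeR p of 0.117. For source and form, Cd40 came closest, at 0.34 ± 0.16 with an unadjusted edgeR p of 0.0614. No interaction passed after adjustment for any of the 10 genes. Of all genes edgeR called 0% in each, with 159 for tumour and form and 355 for source and form at an unadjusted p below 0.05, and DESeq2 called 0 and 1.

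**Figure D3:**
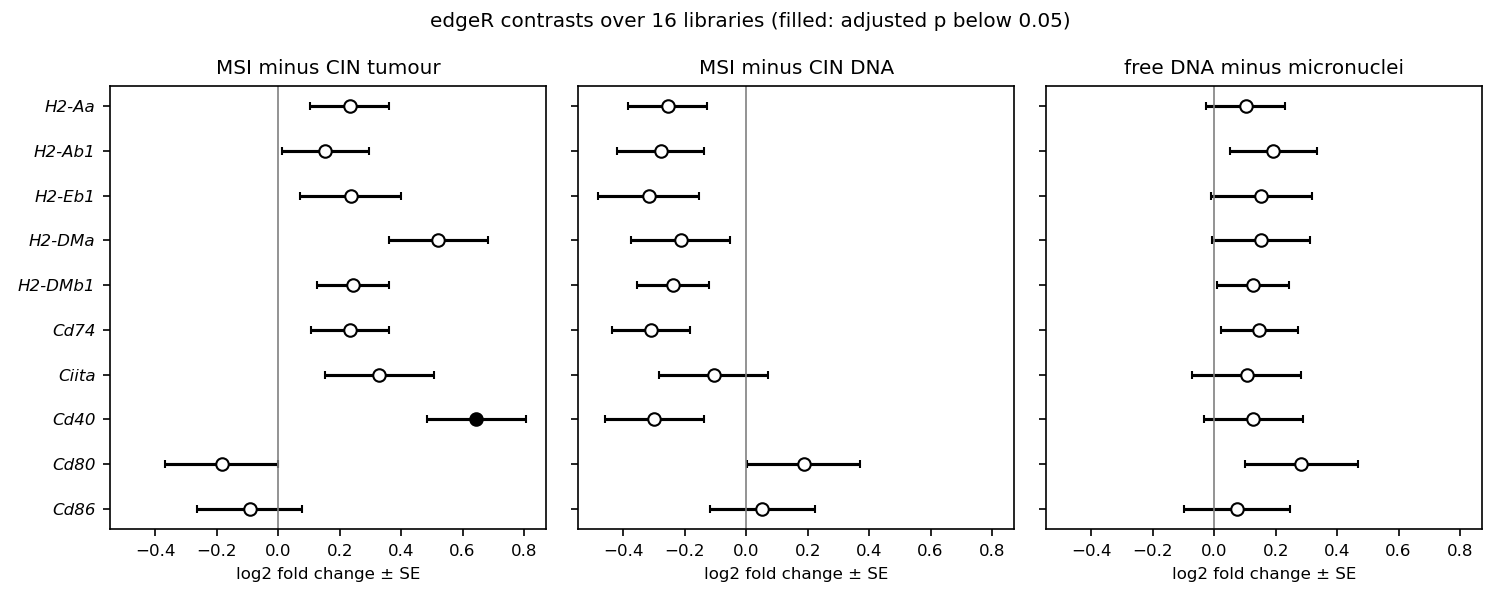
Log2 fold change of each gene with its standard error for tumour, DNA source and DNA form over 16 libraries, filled where the adjusted p is below 0.05. Cd40 in the tumour comparison is the only filled point, at 0.65, and all 10 genes lie right of 0 for DNA form.

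Across libraries the class II, H2-M and Cd74 genes varied together. Correlations of log2 CPM over the 16 libraries were computed in a family of 100 relations, each with 100000 permutations, and describe libraries that share tissue makeup and scaling. The permutations took no account of the 8 groups, so differences between groups also enter r and p. H2-Aa and Cd74 had Pearson r = 0.98 and Spearman rho = 0.96 (permutation p = 1e-05 for both, the smallest these permutations can give, adjusted p = 1.43e-04 and 2.00e-04). Without the 2 libraries furthest from the median of H2-Aa, r was 0.98, and it was 0.95 within MSI and 0.99 within CIN tumours. H2-Ab1 and H2-Eb1 had r = 0.96 and rho = 0.92, with the same p-values and r = 0.95 without the 2 furthest libraries. H2-DMa and H2-DMb1 had r = 0.91 and rho = 0.84 (permutation p = 1e-05 and 8e-05, adjusted p = 1.43e-04 and 8.00e-04), with r = 0.84 without the 2 furthest, 0.96 within MSI and 0.84 within CIN tumours. Ciita and H2-Ab1 had r = 0.72 and rho = 0.74 (permutation p = 0.00171 and 0.0014, adjusted p = 0.00712 and 0.007), with r = 0.65 without the 2 furthest libraries, 0.64 within MSI and 0.82 within CIN tumours. Cd40 had r = 0.65 to 0.73 with the class II, H2-M and Cd74 genes (adjusted permutation p = 0.00578 to 0.0162), with 0.35 to 0.51 within MSI and 0.69 to 0.78 within CIN tumours. With group means removed, these values of Cd40 were 0.22 to 0.46, while H2-Aa and Cd74 had r = 0.99. Cd80 lay between -0.18 and -0.04 with them and Cd86 between 0.05 and 0.34 (adjusted permutation p of 0.335 or more). Within MSI tumours Cd86 had higher values, with r = 0.82 for H2-DMa, 0.67 for H2-DMb1, 0.62 for H2-Eb1 and 0.74 for Ciita, against -0.06, 0.08, 0.01 and 0.17 within CIN tumours. Cd80 and Cd86 had r = 0.47 and rho = 0.40 with each other (permutation p = 0.0665 and 0.127, adjusted p = 0.145 and 0.244), and r fell to 0.08 without the 2 furthest libraries.

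**Figure D4:**
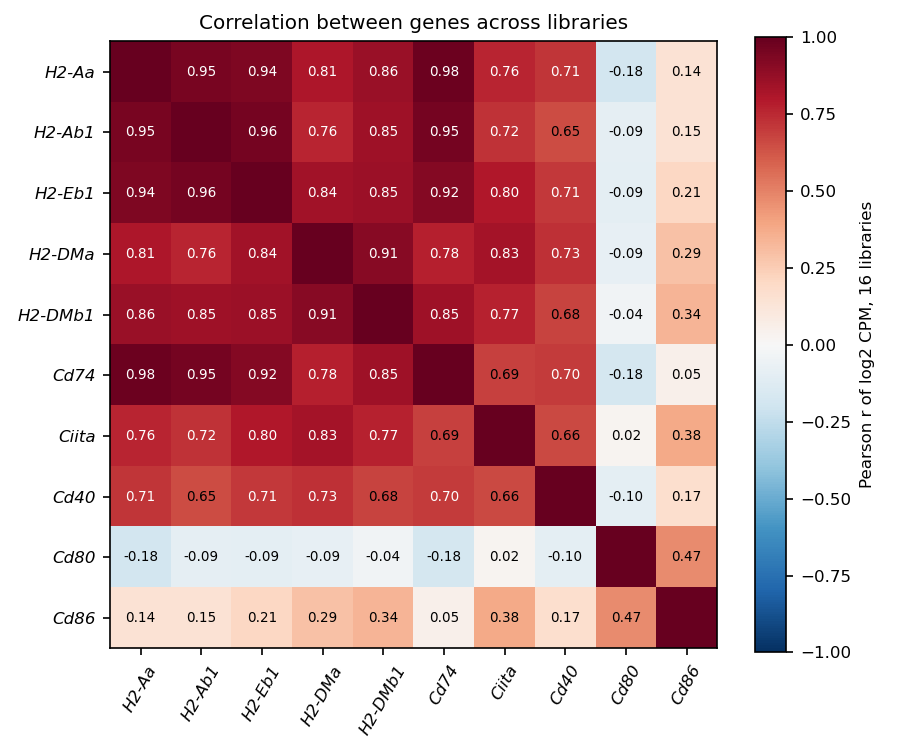
Pearson r of log2 CPM between each pair of genes over 16 libraries, on a colour scale from -1 to 1. The class II, H2-M and Cd74 genes reach 0.98 with one another, Ciita and Cd40 are lower, and Cd80 has values from -0.18 to -0.04 with the class II, H2-M and Cd74 genes.

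Marker scores of cell types were set against H2-Ab1, Ciita, Cd40, Cd80 and Cd86, and a part of these relations is given here. H2-Ab1 and the T cell score, the mean log2 CPM of 8 markers, had r = 0.83 and rho = 0.67 (permutation p = 1.40e-04 and 0.00587, adjusted p = 9.33e-04 and 0.0183), with r = 0.80 without the 2 furthest libraries, 0.54 within MSI and 0.92 within CIN tumours. H2-Ab1 and the B cell score had r = 0.68 and rho = 0.62 (permutation p = 0.00319 and 0.0117, adjusted p = 0.0103 and 0.0311), with r = 0.53 without the 2 furthest, -0.17 within MSI and 0.92 within CIN tumours. H2-Ab1 and the dendritic cell score had r = 0.71 and rho = 0.67 (permutation p = 0.00213 and 0.00563, adjusted p = 0.00786 and 0.0183), with r = 0.65 without the 2 furthest, 0.36 within MSI and 0.80 within CIN tumours. H2-Ab1 and the macrophage score had r = 0.17 (rho = 0.11, permutation p = 0.528 and 0.689, adjusted p = 0.698 and 0.783). Cd86 and the macrophage score had r = 0.71 and rho = 0.75 (permutation p = 0.00201 and 0.00121, adjusted p = 0.00773 and 0.00637), with r = 0.71 without the 2 furthest, 0.86 within MSI and 0.88 within CIN tumours. Cd40 and the T cell score had r = 0.86 and rho = 0.81 (permutation p = 3e-05 and 3e-04, adjusted p = 2.50e-04 and 0.00207), with 0.75 without the 2 furthest, 0.72 within MSI and 0.90 within CIN tumours. Cd40 and the dendritic cell score had r = 0.66 and rho = 0.70 (permutation p = 0.00552 and 0.00361, adjusted p = 0.0153 and 0.0144), with 0.49 without the 2 furthest, 0.54 within MSI and 0.81 within CIN tumours. Cd40 and the mast cell score had r = 0.66 and rho = 0.67 (permutation p = 0.00482 and 0.00523, adjusted p = 0.0142 and 0.0183), with 0.53 without the 2 furthest, but -0.53 within MSI and 0.54 within CIN tumours. Cd40 and the endothelial score had r = 0.81 and rho = 0.75 (permutation p = 1.30e-04 and 0.00113, adjusted p = 9.29e-04 and 0.00628), but r = 0.03 within MSI and 0.84 within CIN tumours, and 0.75 without the 2 furthest. With group means removed, Cd40 had r = 0.68 with the T cell score, 0.45 with the dendritic cell score, 0.47 with the endothelial score and -0.54 with the mast cell score. H2-Ab1 and the skeletal muscle score had r = -0.65 and rho = -0.64 (permutation p = 0.00753 and 0.00881, adjusted p = 0.0198 and 0.0252), with -0.64 without the 2 furthest, -0.24 within MSI and -0.85 within CIN tumours. Ciita and the endothelial score had r = 0.70 and rho = 0.66 (permutation test, adjusted p = 0.0092 and 0.0186), with 0.53 within MSI and 0.76 within CIN tumours. Cd86 and the smooth muscle score had r = -0.58 and rho = -0.66 (permutation test, adjusted p = 0.041 and 0.0197), with -0.83 within MSI and -0.21 within CIN tumours.

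**Figure D5:**
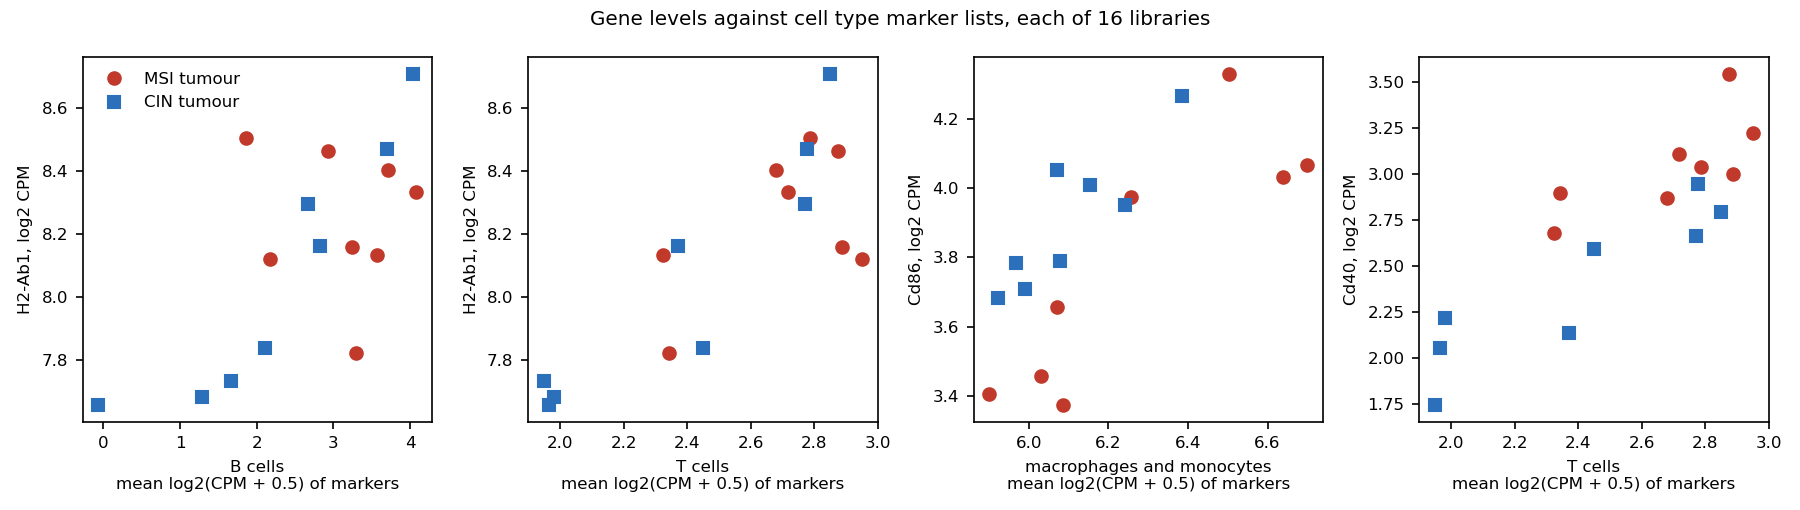
Log2 CPM of H2-Ab1, Cd86 and Cd40 against the mean log2 CPM of marker lists in 16 libraries, MSI tumours as circles and CIN tumours as squares. H2-Ab1 and the B cell score have r = 0.92 in CIN and -0.17 in MSI tumours, and Cd86 and the macrophage score have 0.88 and 0.86.

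The genes with the most similar pattern over the 16 libraries were named by the highest r among 18767 tested genes, as a description. For the mean of H2-Aa, H2-Ab1, H2-Eb1 and Cd74 they were Gimap3 (r = 0.88), P2ry10, Cd52, Rac2 and H2-Q4. For Ciita they were Rasgrp1 (0.88), Pik3cd, Grap2, Ikzf1 and Klrb1c. Cd40 was most like Gm2a (0.91), Birc2 (0.90), Ctsa, S1pr3 and Trbc2. Cd86 was most like 1600014C10Rik (0.88), Snx10, Fes, Lcp1 and Lilr4b, and Cd80 reached only 0.79, with Serpina3h.

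Other genes of the pathway were taken from 5 lists. Of 14 genes of peptide loading and class II turnover 13 were tested for the tumour effect, 10 were positive and 0 passed. Their median log2 fold change was 0.18, and 3 had an unadjusted edgeR p below 0.05, as had 4144 of all 18777 genes. Ifi30, the lysosomal thiol reductase that opens disulfide bonds of antigens, had 122 ± 18.2 CPM in MSI and 92.0 ± 13.8 CPM in CIN tumours (SD, n = 8, log2 fold change 0.41 ± 0.11, adjusted p = 0.0558). Ctss, the cathepsin that trims the invariant chain, had 0.23 ± 0.08 (adjusted p = 0.121) and the asparaginyl endopeptidase gene Lgmn 0.18 ± 0.14 (0.458). Under 29 other settings Ifi30 passed in 9, Ctss in 2 and Lgmn in 0. H2-Oa and H2-Ob, which encode the inhibitor of H2-M, had 0.74 ± 0.46 and 0.48 ± 0.55, H2-DMb2 had 0.47 ± 0.35 and H2-Eb2 0.52 ± 0.70, none of which passed (adjusted p from 0.364 to 0.662).

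Of 18 genes of class II transcription and interferon gamma signalling, 1 was higher and 2 were lower in MSI tumours, with a median log2 fold change of 0.14. That is 3 of 18 called, against 5.80% of all genes. The 3 genes of NF-Y, which binds the Y box, did not move together. Nfya had 66.9 ± 7.89 CPM in MSI and 95.6 ± 15.3 CPM in CIN tumours (log2 fold change -0.51 ± 0.11, edgeR adjusted p = 0.0233). Nfyc had 53.4 ± 4.09 against 43.5 ± 2.62 CPM (0.29 ± 0.06, adjusted p = 0.0236). Nfyb had 0.09 ± 0.08 (adjusted p = 0.476). Zxdc, whose product acts with CIITA, had 27.0 ± 3.70 against 37.4 ± 4.40 CPM (-0.48 ± 0.10, adjusted p = 0.0229). The interferon regulatory factor gene Irf1 had 0.15 ± 0.10 (adjusted p = 0.399), Ifng 0.32 ± 0.27 (0.481) and the X box factor gene Rfx5 0.09 ± 0.14 (0.723), and none of these passed. Nfya, Nfyc and Zxdc kept their signs under all 29 other settings, and lost the call in 8, 10 and 10 of the 16 fits that left out 1 library. Without the 5 muscle-rich libraries, with fewer libraries fitted, the log2 fold changes were -0.35, 0.29 and -0.34 (adjusted p = 0.248, 0.225 and 0.254). With the B cell covariate they were -0.40, 0.28 and -0.39 (0.0580, 0.0678 and 0.0742) and with the T cell covariate -0.45, 0.29 and -0.40 (0.318, 0.266 and 0.340). Nfyc was also not called without the filter on low counts (0.27, adjusted p = 0.234).

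Of 17 costimulatory and coinhibitory partners, a list of both receptors and ligands, 15 were tested and the median log2 fold change was 0.32. Of these, 1 was lower in MSI tumours, against 3.48% of all genes. Tnfrsf9, which encodes the receptor 4-1BB, had 20.3 ± 5.47 CPM in MSI and 37.8 ± 8.96 CPM in CIN tumours (log2 fold change -0.88 ± 0.18, edgeR adjusted p = 0.0200), a sign kept under all 29 other settings and a call kept in 20 of them. Without the muscle-rich libraries the log2 fold change was -1.06 and the adjusted p 0.131, with the B cell covariate -0.80 and 0.0509, and with the T cell covariate -1.03 and 0.139. The receptors of the CD28 ligands had positive values that did not pass, with 0.67 ± 0.24 for Ctla4 (adjusted p = 0.140) and 0.45 ± 0.22 for Cd28 (0.270). Cd40lg, the ligand of Cd40, had too few counts to test, as had Cd70. Of 12 genes of CD40 signalling 0 passed, with a median of -0.08. An unadjusted edgeR p below 0.05 was seen for 2 of them and for 4144 of all 18777 genes. Of 7 genes of CD4 T cell recognition 0 passed (0 at an unadjusted edgeR p below 0.05), with a median of 0.32 and 0.58 ± 0.29 for Cd4 (adjusted p = 0.272). For DNA source and DNA form no gene of any list passed, as no gene of the whole table did (0% called).

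In the coordinates deposited with the counts H2-DMa, H2-DMb1, H2-Ab1, H2-Aa and H2-Eb1 lie on chromosome 17 within 181 kb, from 34135182 to 34316199. The stretch held 13 tested genes, among them the class I peptide supply genes Psmb9, Tap1, Psmb8 and Tap2, and 0 were called for the tumour effect. Their log2 fold changes ran from -0.07 for Gm20496 to 0.52 for H2-DMa, with 12 positive. Cd40 (ENSMUSG00000017652) lies on chromosome 2 from 165055627 to 165072948, Ciita on chromosome 16 from 10480059 to 10528418, and Cd74 on chromosome 18.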

How the data were processed

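RNA was sequenced in 16 libraries, and the authors deposited counts per gene with FPKM beside them. The submitters' processing notes name fastp, HISAT2 2.0.5, featureCounts 1.5.0-p3 and build GRCm39. The gene coordinates in the deposited table are mostly those of GRCm38, identical to GENCODE M21 for 53585 of 54495 shared genes. Of the 10 genes described here, 5 had identical coordinates. The deposited FPKM equalled counts over gene length and 1 total per library within a relative tolerance of 1e-06. In each file 4 columns matched no sample and were not used.

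Counts were tested with edgeR 4.0.16 in R 4.3.3, with TMM scaling, filterByExpr by group and robust quasi-likelihood fits of a model with 1 mean per group. The Benjamini-Hochberg threshold was 0.05 over all 18777 genes in each of 10 contrasts. The tumour and DNA source contrasts were checked on simulated counts with a tumour effect, and the other contrasts were not. The common biological coefficient of variation was 0.43, and libraries of the same group lay further apart than counting noise (chi-square per degree of freedom 21.4 to 238), so each was kept as a sample. Same-numbered libraries deviated together in MSI tumours (correlations of 0.30 to 0.74 over 6 pairs of groups), and the sign was mixed in CIN tumours (-0.27 to 0.33). Precision is limited by that spread more than by depth. Ratios of FPKM were compared by exact permutation of the label under test among libraries alike in the other factors. Alternatives were other scalings and filters, DESeq2 1.42.0, a replicate block, additive and covariate models, and leaving out each library. The named genes were the 10 genes described, every called gene of 5 pathway lists (at most 6 per list and effect), 15 fixed pathway genes (1 of which is not reported here), and the 5 genes most like each pattern. The 10 genes and the lists were chosen with earlier results of these data known.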

Additional observations from a re-analysis of the deposited data

Results flagged for a closer look

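H2-DMa in the 8 libraries given CIN DNA had 1 library set apart from the others by Dixon's test. Replicate 1 of MSI tumours given CIN free DNA had 78.6 CPM, and the gap to the next library was 0.543 of the whole range, above that test's 95% critical value for 8 samples. Of 60 sets of libraries examined, this was the only one so marked, and chance marks about 1 in 20. Ciita and H2-DMb1 were also highest of all libraries there, at 38.0 and 77.6 CPM.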

How the results depend on the processing

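Of 870 values of the 10 genes over 29 other settings and 3 effects, 819 kept their sign and side of the threshold, 19 lost a call (all Cd40 in the tumour effect), 8 gained one (7 H2-DMa, 1 Cd86) and 24 changed sign. Of the 10 genes, 1 was called in the tumour effect, but 0 with library totals alone, without the 5 muscle-rich libraries, with the B cell covariate and with the T cell covariate. There were 2 with DESeq2, the replicate block, the replicate block within each tumour type, the additive model, and the colon and skeletal muscle covariates, and 3 with the macrophage covariate. Leaving out 1 library gave 0 to 1. Without a filter on low counts the 1 call was H2-DMa, and Cd40 had an adjusted p of 0.101. The cause was not tested, except that fewer libraries were fitted without the muscle-rich ones.

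Over all genes the tumour effect called 1089 genes, 2295 with DESeq2, 1778 with the replicate block, 3428 with the block within each tumour type, 1950 in the additive model, 135 without the muscle-rich libraries, 1754 with the colon and skeletal muscle covariates, and 7848, 698 and 93 with the macrophage, B cell and T cell covariates, chosen after seeing the data. Leaving out 1 library gave 477 to 1758. Deviations of same-numbered libraries from their group means had correlations of 0.30 to 0.74 over the 6 pairs of groups within MSI tumours, -0.27 to 0.33 over the 6 within CIN tumours and -0.48 to 0.59 over the 16 across tumours, so the numbers pair the libraries within MSI tumours only. There the replicate block changed no call of source or form: 0 genes were called with it and without it.

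None of the values that changed sign was called. With the T cell covariate the log2 source effect was 0.0196 for H2-Aa, 0.0541 for H2-Ab1, 0.0297 for H2-Eb1, 0.0259 for H2-DMa and 0.194 for Ciita, the form effect -0.0162 for H2-Aa, -0.0011 for H2-Eb1 and -0.0228 for Ciita, and the tumour effect -0.101 for H2-Ab1 and -0.0309 for H2-Eb1. With the B cell covariate Cd86 had a source effect of -0.0132 and a tumour effect of 0.0349, and without the muscle-rich libraries H2-Ab1 had a tumour effect of -0.105. Leaving out 1 library, the source effect ran from -0.0411 to 0.150 for Cd86 and from -0.215 to 0.0600 for Ciita, and the form effect from -0.00572 to 0.176 for Cd86, -0.0401 to 0.234 for Ciita and -0.0138 to 0.212 for H2-Aa. Of 19 pathway genes, 5 changed sign in the tumour effect, none of them called. Without the muscle-rich libraries the values were -0.186 for H2-DMb2, -0.431 for H2-Eb2 and -0.187 for H2-Ob, with the colon and skeletal muscle covariates -0.0682 for H2-Eb2 and -0.102 for H2-Ob, with the B cell covariate -0.394 and -0.345, with the T cell covariate -0.0331 for H2-DMb2, -0.273 for H2-Eb2, -0.0540 for H2-Ob and -0.0752 for Rfx5, and with the macrophage covariate -0.00523 for Lgmn and -0.0538 for Rfx5. Cd40 and Cd80, with 42 to 162 and 43 to 113 counts per library, are the genes that depth limits most.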
